A study of Mus musculus with 6 samples.

Results

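The levels of 10 genes of the neuropeptide secretory granule were compared between wild-type (WT) and KDM6B knockout (KO) mouse cortical neurons. They were chosen by name, with earlier results of these data known, from a table of 20040 gene entries: the granins Scg2, Scg3, Vgf, Chga and Chgb, the granin-related chaperone Scg5, and the processing enzymes Pcsk1, Pcsk2, Cpe and Pam. The series holds 6 libraries, 3 WT and 3 KO, of mRNA from neurons cultured from cortices of embryos at embryonic day 18 on a C57BL/6 background. WT is labelled wild type, KO is labelled KDM6B KO, and no other allele or treatment is named for either group. The sources used here do not give which part of Kdm6b is missing, in which cells it was deleted, the days in culture or the number of embryos per library. Expression was given in TPM, a share of transcripts corrected for gene length that adds up to 1000000 per library. No label says whether the replicates are separate cultures. All p-values therefore reflect the spread among these 6 libraries alone, and that spread may be technical.

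Neuropeptides are made as longer precursors that are sorted in the trans-Golgi network into dense-core granules. Granins are acidic proteins that condense there with the precursors and are themselves cut into peptides. The prohormone convertases PCSK1 and PCSK2 cleave precursors after pairs of basic residues, carboxypeptidase E removes the exposed basic residues, and PAM converts a terminal glycine into an amide that many peptides need for full activity. Scg5 encodes 7B2, the chaperone that pro-PCSK2 needs to become active, and Pcsk1n encodes proSAAS, an inhibitor of PCSK1. KDM6B is a histone demethylase that takes off a methyl mark linked to gene silencing.

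Kdm6b was lower in the libraries labelled KO. The gene, at 69398508 to 69413675 on chromosome 11 (GRCm38), had 30.9, 30.3 and 30.7 TPM in WT replicates 1, 2 and 3 and 11.2, 11.1 and 12.0 TPM in KO, a mean of 37.3% of WT (log2 fold change -1.39, limma adjusted p = 1.1e-05). The whole-number counts behind the values added up to at least 19761725 to 23503667 per library. Sex-linked transcripts separated the groups as well. The Y-linked Ddx3y had 25.9 to 26.3 TPM in WT and at most 0.191 TPM in KO. The X-linked Xist had 70.8 to 77.7 TPM in WT and 224.3 to 240.7 TPM in KO. Sex composition and genotype cannot be told apart in any comparison below.

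All 10 genes passed the filter on low values, and 9 of them averaged 100 TPM or more. Cpe stood highest, in rank 20 of all 20040 entries, at a mean of 1979 TPM over the 6 libraries. It alone made up 55.3% of the summed TPM of the 10 genes in WT and 57.8% in KO. Scg3 followed at 293.0 TPM, then Scg5 at 226.2, Chgb at 211.2, Chga at 199.8, Scg2 at 155.3, Pam at 147.7, Vgf at 135.1 and Pcsk2 at 134.1 TPM. Pcsk1 was lowest, at 19.8 TPM in rank 8035. The steps from Cpe to Scg3, from Scg3 to Scg5, from Chga to Scg2 and from Pcsk2 to Pcsk1 held without overlap between libraries, whereas every other pair of neighbours in this order overlapped. The order of Vgf and Pcsk2 depended on genotype: Pcsk2 was above Vgf in 3 of 3 WT libraries and below it in 3 of 3 KO libraries. Together the 10 genes held 3425 to 3528 TPM in WT and 3465 to 3571 TPM in KO, so their summed level overlapped between genotypes.

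**Figure D1:**
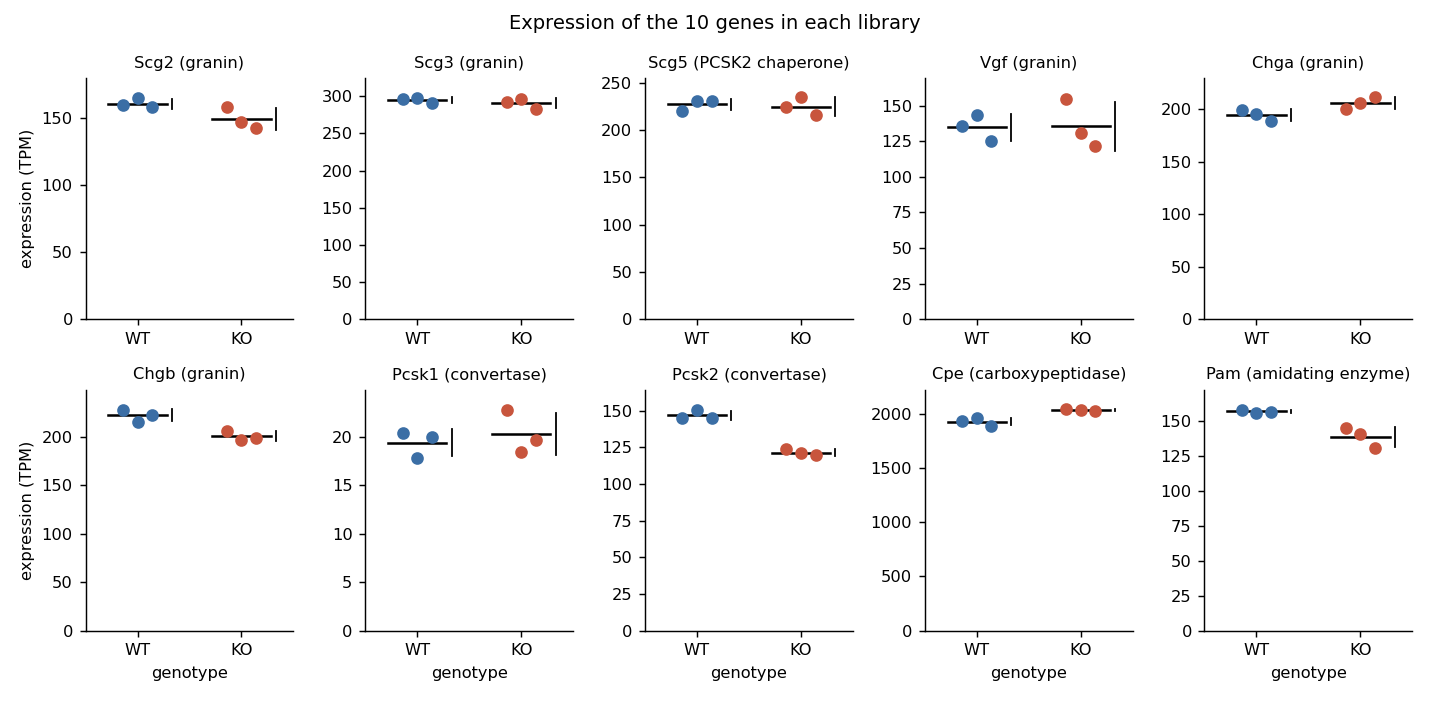
Expression in TPM (vertical axes, each starting at 0) of the 10 genes in the 3 WT and 3 KO libraries. Points are libraries, in replicate order from left to right, horizontal lines are group means and vertical lines extend 1 SD to either side. The KO points of Pcsk2, Pam and Chgb all lie below the WT points, those of Cpe and Chga lie above them, and Vgf and Pcsk1 overlap widely.

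Promoter sequences are shown because several of these genes are textbook targets of CREB, the cAMP-responsive factor that binds TGACGTCA and its core TGACG. RefSeq windows (GRCm38.p6) were matched for 8 of the 10 genes, all but Vgf and Cpe. In the 250 bases before the RefSeq start, the palindrome TGACGTCA was found in 3 of the 8, Scg2, Chgb and Pcsk1, and in 1.77% of all 27025 genes with a window (1.55% of the 32851 windows). The core TGACG, searched on both strands and contained in the palindrome, was found in 7 of the 8 and in 19.8% of all genes (17.8% of the windows). In Pam neither was found in this window. All genes with a window include genes not tested here, and the shares among tested genes were not computed. Both motifs hold a CG dinucleotide. The median was 6 CG dinucleotides over all windows, against 16 in tested genes called lower, called higher or not called. Where the palindrome was found only it is shown, so a further core in the Pcsk1 window is left out. The matches shown, each with 11 bases to either side and with the matched letters in capitals, read 5′ to 3′ along the gene:
Scg2 (chr1:79440076-79440105, minus strand, 68 to 61 bases before the start): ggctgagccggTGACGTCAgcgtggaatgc
Chgb (chr2:132781559-132781588, plus strand, 72 to 65 bases before the start): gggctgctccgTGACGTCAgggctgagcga
Pcsk1 (chr13:75089768-75089797, plus strand, 78 to 71 bases before the start): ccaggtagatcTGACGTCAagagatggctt
Chga (chr12:102554886-102554912, plus strand, 44 to 40 bases before the start): gggcggtcctaTGACGtaatttcctgg
Scg3 (chr9:75684071-75684097, minus strand, 30 to 26 bases before the start): cgctgggtcgcTGACGccatcctcacg
Scg5 (chr2:113829251-113829277, minus strand, 175 to 171 bases before the start): aaggaggtaaaTGACGttcataggggt
Pcsk2 (chr2:143546088-143546114, plus strand, 34 to 30 bases before the start, core on the opposite strand): tggcgggcgcgCGTCAcccgggctggc
GENCODE M21 places the starts of Scg2 and Chgb further upstream, so these 2 matches lie inside the gene there. The palindrome occurred in 1 gene that fell in KO (Chgb) and in 2 that did not pass the test (Scg2 and Pcsk1). Whether these sites relate to the calls was not tested.

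Of the 10 genes, 3 were lower in KO, Pcsk2, Pam and Chgb, none was higher and 7 did not pass the test (limma on log2 of TPM plus 0.5, Benjamini-Hochberg adjusted p below 0.05 over 14983 tested genes). Over all tested genes 10.9% were called, 6.74% lower and 4.15% higher, and among the 2234 genes that averaged 100 TPM or more 17.4% were called, 10.2% lower. The higher share of all calls was 38.1% with the values as deposited, 53.1% after median centring and 49.2% after quantile normalization. At an unadjusted p under 0.05, 4 of the 10 were lower and 2 higher, against 16.2% lower and 10.3% higher of all tested genes. Limma voom on the recovered counts called 3 lower and 1 higher, against 9.56% lower and 7.9% higher of all genes with that tool. The differences were small, with none of the 10 reaching 1.5-fold and a largest absolute log2 fold change of 0.27. The median log2 fold change of the 10 was -0.020, beside -0.019 over all tested genes. WT and KO libraries did not overlap in 5 of the 10 genes, with KO below in 3 and above in 2 (Cpe and Chga), where 31.7% of all tested genes were so separated. Of the 10 genes, 9 averaged 100 TPM or more. For that class, shares of separated genes, at unadjusted p and with voom were not computed. Cells were analysed in bulk, so fewer cells of a type and less RNA per cell cannot be told apart.

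**Figure D2:**
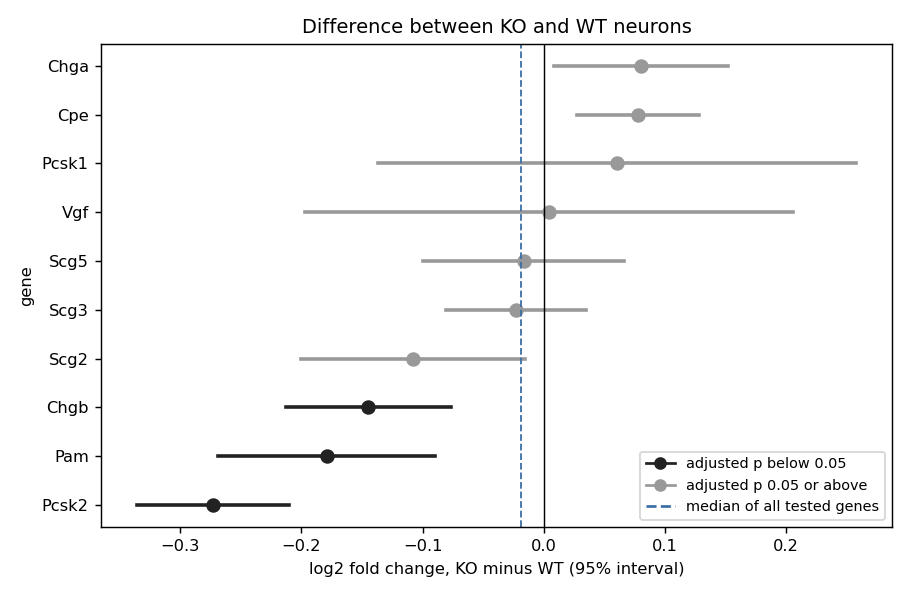
Log2 fold change of KO against WT (horizontal axis, points) with its 95% interval (lines) for each of the 10 genes (vertical axis), with genes past the adjusted threshold in black and the others in grey. Pcsk2, Pam and Chgb lie left of 0 at -0.27, -0.18 and -0.14, while the intervals of Vgf, Pcsk1, Scg5 and Scg3 include 0. The dashed line is the median of all tested genes, at -0.019.

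Of the convertases, Pcsk2 passed the test and Pcsk1 did not. Pcsk2, at 143546156 to 143816285 on chromosome 2, had 145.1, 150.3 and 145.0 TPM in WT replicates 1, 2 and 3, against 123.8, 120.8 and 119.6 TPM in KO replicates 1, 2 and 3. The lowest WT library was thus above the highest KO library, and both groups were tight. The mean fell from 146.8 ± 3.04 to 121.4 ± 2.18 TPM (SD, n = 3 each), to 82.7% of WT, a log2 fold change of -0.27 ± 0.027 (SE; limma adjusted p = 0.0011). Between 4908 and 5160 counts stood behind each WT value and between 3749 and 4532 behind each KO value. Pcsk2 passed in each of the 17 alternative settings, at adjusted p between 6.4e-08 and 0.015. Annotated exons of Pcsk2os1 and Pcsk2os2 overlap Pcsk2 on the opposite strand, and both are listed at low levels, 1.65 and 0.0898 TPM on average. Whether the counting used strand is not given in the sources used here, and reads of such partners cannot then be told apart.

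Pcsk1, at 75089826 to 75134861 on chromosome 13, had 20.4, 17.8 and 20.0 TPM in WT, against 22.7, 18.4 and 19.7 TPM in KO. The groups overlapped, with KO replicate 1 highest of all. KO minus WT on the log2 scale was 0.061 ± 0.086 (SE; limma adjusted p = 0.71), and its 95% interval from -0.14 to 0.26 does not reach the change of Pcsk2, -0.27. Counts per library ran from at least 309 to 410, the fewest of the 10 genes. Its inhibitor gene Pcsk1n, on chromosome X, had 134.7 to 159.0 TPM in WT and 138.0 to 158.5 TPM in KO (log2 fold change -0.0079 ± 0.068 SE, limma adjusted p = 0.96; 95% interval -0.17 to 0.15). Scg5, the PCSK2 chaperone gene at 113776362 to 113829121 on chromosome 2, had 220.5, 231.0 and 230.8 TPM in WT, against 224.2, 234.9 and 215.6 TPM in KO. Its groups overlapped, and the log2 difference was -0.017 ± 0.036 (SE; limma adjusted p = 0.82), with a 95% interval from -0.10 to 0.066 that does not reach the change of Pcsk2.

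Ratios taken within a library do not depend on how that library was scaled, and 6 were computed. The Pcsk1 to Pcsk2 ratio was 0.141, 0.118 and 0.138 in WT replicates 1, 2 and 3 and 0.184, 0.153 and 0.164 in KO. All KO libraries were above all WT libraries, at means of 0.132 ± 0.012 and 0.167 ± 0.016 (SD, n = 3 each; two-sided exact permutation p = 0.1, adjusted over the 6 ratios 0.2). The chaperone to convertase ratio, Scg5 to Pcsk2, was 1.52, 1.54 and 1.59 in WT and 1.81, 1.94 and 1.80 in KO, without overlap (exact p = 0.1, adjusted 0.2). Both ratios divide by Pcsk2, so they carry its fall and are not separate results. With 3 libraries against 3 the smallest p this test can give is 0.1, so no ratio could pass the threshold. The Pcsk1n to Pcsk1 ratio overlapped between groups, at 6.75 to 8.94 in WT and 6.37 to 8.06 in KO (exact p = 0.8, adjusted 0.8).

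**Figure D3:**
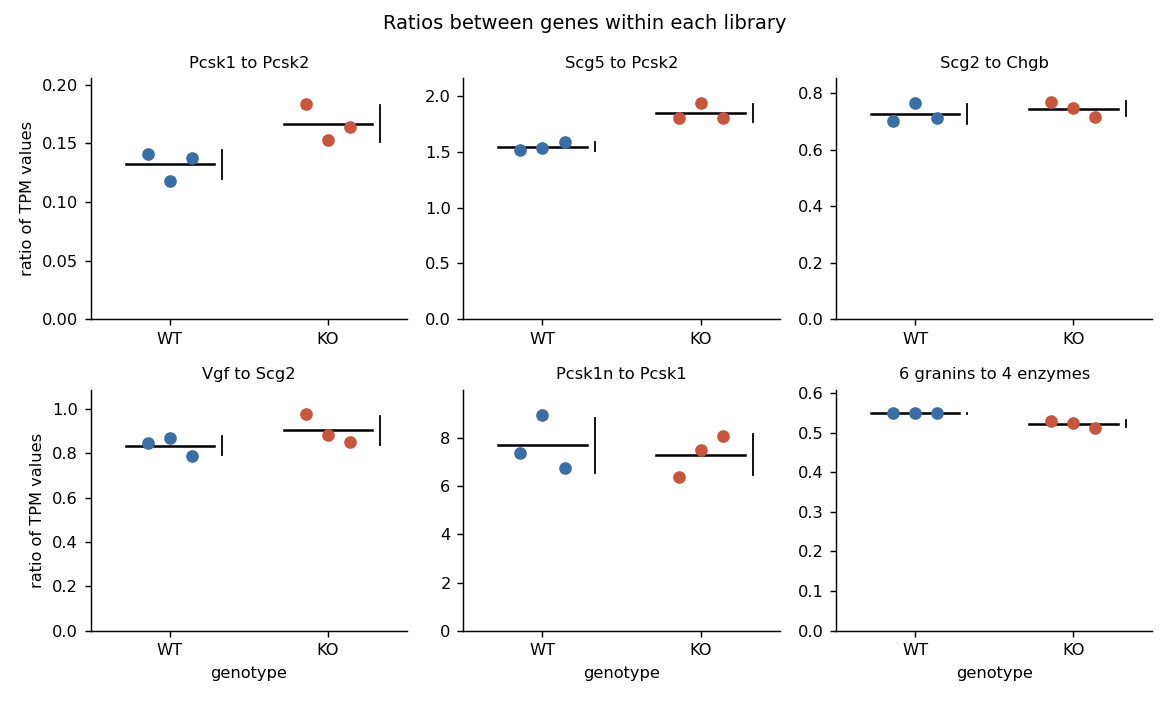
Ratios of TPM values (vertical axes, each starting at 0) for 6 gene pairs or sums in the 3 WT and 3 KO libraries, with points as libraries, horizontal lines as group means and vertical lines as 1 SD to either side. The Pcsk1 to Pcsk2 and Scg5 to Pcsk2 ratios are higher in every KO library, the ratio of 6 granins to 4 enzymes is lower, and the other 3 overlap. The direction of the granin to enzyme ratio rests on Cpe, the largest term of its enzyme sum.

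Of the enzymes that act after cleavage, Pam passed the test and Cpe did not. Pam, at 97795114 to 98095646 on chromosome 1, had 157.9, 155.8 and 156.7 TPM in WT, against 144.9, 140.4 and 130.4 TPM in KO. The WT libraries were nearly equal, all KO libraries were lower, and KO replicate 3 was lowest. Pam fell to 88.4% of WT, from 156.8 ± 1.09 to 138.5 ± 7.45 TPM (SD, n = 3 each), a log2 fold change of -0.18 ± 0.039 (SE; limma adjusted p = 0.025). The call was lost without WT replicate 1, 2 or 3 or without KO replicate 2 (adjusted p = 0.083, 0.064, 0.063 and 0.061) and without the variance trend (0.088), while the direction held. An exon of B230216N24Rik, at 11.5 TPM on average, overlaps Pam on the same strand.

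Cpe, at 64592542 to 64693054 on chromosome 8, had 1935, 1955 and 1888 TPM in WT, against 2044, 2032 and 2022 TPM in KO. Every KO library was above every WT library. Means were 1926 ± 34.1 and 2033 ± 10.95 TPM (SD, n = 3 each), a ratio of 1.06, with a log2 fold change of 0.078 ± 0.022 (SE) and a limma adjusted p of 0.059 that missed the threshold. Cpe passed in 4 of 17 alternatives: median centring (adjusted p = 0.024), rescaling without the 10 most abundant genes (0.034), a robust variance trend (0.037) and limma voom (7.7e-04). It passed in none of the 6 limma fits that left out 1 library (0.095 to 0.14), and quantile normalization took its log2 fold change to 0.016 (0.64). With Cpe left aside, the other 3 enzymes summed to 321.7 to 323.9 TPM in WT and 269.6 to 291.4 TPM in KO.

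Among the granins, Chgb was the gene that passed. Chgb encodes secretogranin I and lies at 132781278 to 132795079 on chromosome 2. It had 227.8, 215.4 and 222.4 TPM in WT, against 206.0, 196.8 and 199.1 TPM in KO, so that the highest KO library stayed below the lowest WT library. The mean fell from 221.9 ± 6.19 to 200.6 ± 4.77 TPM (SD, n = 3 each), to 90.4% of WT, a log2 fold change of -0.14 ± 0.030 (SE; limma adjusted p = 0.020). The call was lost without WT replicate 1 or 3 or KO replicate 2 or 3 (adjusted p = 0.073, 0.053, 0.072 and 0.068) and without the variance trend (0.083).

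Chga, the chromogranin A gene at 102554969 to 102565028 on chromosome 12, had 199.2, 195.3 and 188.2 TPM in WT, against 199.7, 205.5 and 211.1 TPM in KO. The groups were separated by a narrow gap, with KO above WT. KO minus WT on the log2 scale was 0.080 ± 0.031 (SE; limma adjusted p = 0.15), with a 95% interval from 0.0085 to 0.15 that does not meet that of Chgb, -0.21 to -0.076. In WT, Chgb was above Chga in 3 of 3 libraries, and in KO in 1 of 3. The difference between these genes was not itself tested.

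Scg2, the secretogranin II gene that yields secretoneurin, lies at 79434669 to 79440120 on chromosome 1. It had 159.6, 165.3 and 158.3 TPM in WT, against 158.3, 147.6 and 142.8 TPM in KO. KO replicate 1 reached the WT level and the other KO libraries were lower. KO minus WT on the log2 scale was -0.11 ± 0.040 (SE; limma adjusted p = 0.13; 95% interval -0.20 to -0.015), and Scg2 passed only in the fit without KO replicate 1 (adjusted p = 0.039). Scg3, which encodes a granin that binds chromogranin A at granule membranes, lies at 75643189 to 75684056 on chromosome 9. Its values were 296.7, 298.2 and 290.8 TPM in WT, against 292.0, 296.6 and 283.4 TPM in KO. They overlapped closely, with a log2 fold change of -0.023 ± 0.025 (SE; limma adjusted p = 0.63) and a 95% interval from -0.080 to 0.035, among the narrowest of the 10.

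Vgf, a neurotrophin-inducible granin gene at 137026392 to 137033351 on chromosome 5, had 135.3, 143.7 and 124.9 TPM in WT, against 154.7, 130.5 and 121.4 TPM in KO. The lowest and the highest value were both in KO. Its group means were nearly equal, 134.6 ± 9.41 and 135.5 ± 17.2 TPM (SD, n = 3 each), and KO minus WT on the log2 scale was 0.0045 ± 0.087 (SE; limma adjusted p = 0.98; 95% interval -0.20 to 0.21). The Vgf to Scg2 and Scg2 to Chgb ratios overlapped between genotypes (exact permutation p = 0.2 and 0.5, adjusted 0.3 and 0.6). Summed, the 6 genes of the granin group had 1215 to 1249 TPM in WT and 1173 to 1235 TPM in KO, and the 4 enzymes had 2210 to 2279 TPM in WT and 2292 to 2336 TPM in KO. The ratio of these sums was 0.549, 0.548 and 0.550 in WT and 0.529, 0.524 and 0.512 in KO, without overlap (exact permutation p = 0.1, adjusted 0.2). Cpe is the largest term of the enzyme sum and did not pass the test. Without Cpe, the other 3 enzymes summed in KO to 86.8% of WT, below the 97.7% of the granin group. The direction of this ratio therefore rests on Cpe.

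The KO libraries differed among themselves. Of the 10 genes, 7 had their highest KO value in KO replicate 1 and 7 had their lowest in KO replicate 3. Such shares were not computed over all tested genes, so they are not shown to be particular to these genes. KO replicate 1 was above the KO mean in 8 of the 10, by a median of 0.033 on the log2 scale, and KO replicate 3 in 1 of the 10, at a median of -0.037. Vgf and Pcsk1 spread most, with a coefficient of variation over the 3 KO libraries of 12.7% and 10.9%, where Cpe had 0.539% and Pcsk2 1.79%. In a list of 25 activity-regulated genes, 24 were above their KO mean in KO replicate 1, by a median of 0.14 on the log2 scale. Of the same 25, 3 were above it in KO replicate 2 and 6 in KO replicate 3. In WT replicates 1, 2 and 3, 16, 8 and 13 of the 25 were above the WT mean. These shares were not computed over all tested genes either, so they are not shown to be particular to activity-regulated genes. Vgf and Scg2 are known as activity-induced genes, and the part of this difference between libraries in their values was not tested.

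**Figure D4:**
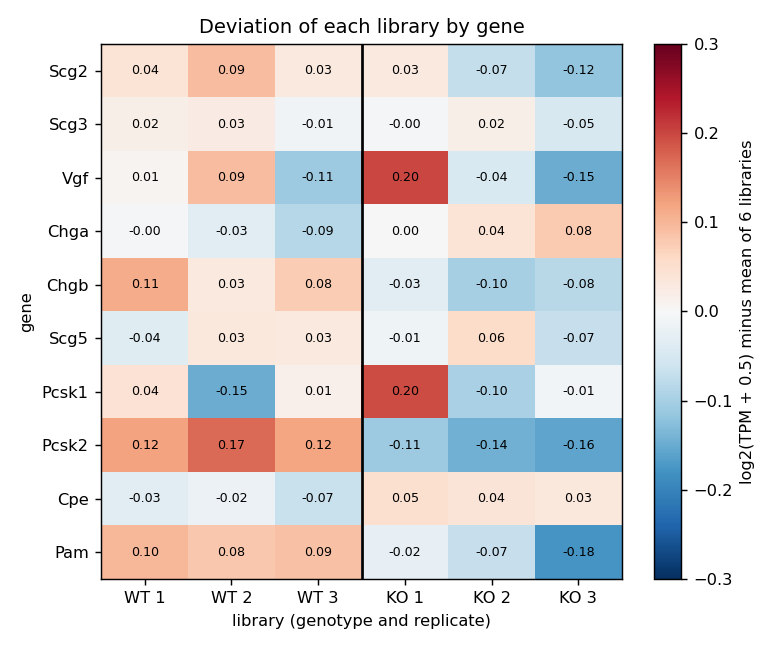
Colour and number give log2 of TPM plus 0.5 minus the mean of the 6 libraries, for each gene (rows) in each library (columns), with a black line between WT and KO. Pcsk2, Pam and Chgb are positive in all WT and negative in all KO libraries, whereas Vgf and Pcsk1 reach 0.20 in KO replicate 1 and vary within both groups.

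Of 28 genes for other convertases, carboxypeptidases, peptidases and cofactors, 25 were tested, of which 1 rose, 1 fell and 23 did not pass (8% called, near the 10.9% of all tested genes; median log2 fold change -0.021). Cpd, a carboxypeptidase of the trans-Golgi network with the same substrate preference as CPE, had 91.9, 90.3 and 89.1 TPM in WT, against 76.2, 75.8 and 75.3 TPM in KO. The KO libraries were all lower, and the mean fell to 83.8% of WT (log2 fold change -0.25 ± 0.026 SE, limma adjusted p = 0.0013). Cpxm1, a carboxypeptidase-like gene, rose from 25.1 ± 2.17 to 34.3 ± 1.101 TPM (SD, n = 3 each), 1.37-fold (limma adjusted p = 0.0042).

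Of 40 genes for granule formation, transport and release, all tested, 4 rose, 4 fell and 32 did not pass (20% called, median log2 fold change -0.018). Of all tested genes 10.9% were called, and of those that averaged 100 TPM or more 17.4%. This list holds genes on both sides of 100 TPM, so neither share is matched to it in level. Rab3c, a small GTPase of secretory vesicles, had 179.8, 181.6 and 186.1 TPM in WT, against 231.7, 227.2 and 223.1 TPM in KO, a 1.25-fold rise (limma adjusted p = 4.4e-04). Syt4, a synaptotagmin found on dense-core granules, rose 1.17-fold, Ica1l 1.16-fold and Rab3b 1.14-fold (limma adjusted p = 0.0023, 0.0099 and 0.0060). The 4 that fell, named after their values were seen, were Sorcs1, Ptprn, Ptprn2 and Unc13a, at log2 fold changes of -0.29, -0.15, -0.13 and -0.11. Ptprn and Ptprn2 encode the granule membrane proteins IA-2 and phogrin. Of these 4 falls, 1 passed without a filter, 1 after median centring, and 0 without the variance trend or with the replicate number as a block. In the 6 fits that left out 1 library, Sorcs1 and Ptprn2 passed in 2 each and Ptprn and Unc13a in 1 each, with adjusted p up to 0.14.

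Of 30 genes for peptides carried by the granules, 23 were tested, of which 9 fell, 2 rose and 12 did not pass (47.8% called, median log2 fold change -0.13). Over all tested genes 10.9% were called. Vip fell to 46.9% of WT and Tac2 to 18.7%, while Penk rose 1.43-fold and Nts 2.44-fold (limma adjusted p = 2.7e-04, 3.2e-04, 1.7e-04 and 2.2e-04). Tac2 and Nts were low genes. Recovered counts per library were 36 to 52 in WT and 6 to 9 in KO for Tac2. For Nts they were 49 to 64 in WT and 121 to 145 in KO. Of the 25 activity-regulated genes, 5 fell, 1 rose and 19 did not pass (24% called, median log2 fold change -0.092). That share also stands beside the 10.9% of all tested genes. Arc fell to 60.6% of WT, Nptx2 to 71.9%, Inhba to 74.1% and Rgs2 to 80.0% (limma adjusted p = 0.0051, 0.011, 0.020 and 0.0069). The fifth to fall was Egr3 and the one to rise was Fosl2, both named after their values were seen, at log2 fold changes of -0.41 and 0.25 (limma adjusted p = 0.02 and 0.026). Inhba and Egr3 each lost their call without WT replicate 1 or 3 or KO replicate 2 or 3 (adjusted p up to 0.074 for both), and Egr3 also without the variance trend (0.072). Fosl2 lost its call without WT replicate 1 or 2 or KO replicate 1 or 2 (up to 0.087), without the variance trend (0.077) and with the replicate number as a block (0.082).

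**Figure D5:**
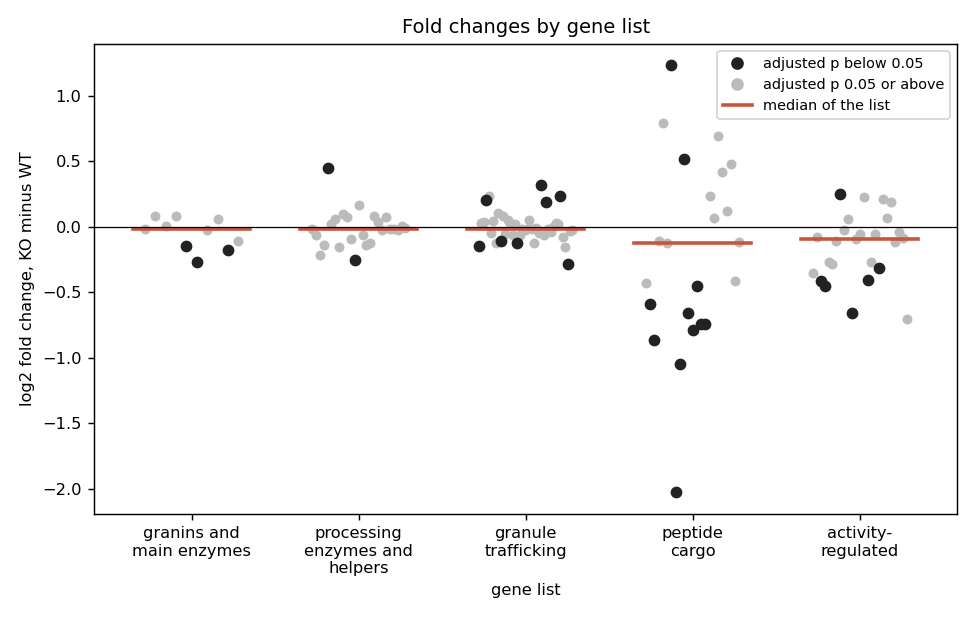
Log2 fold change of KO against WT (vertical axis) for every tested gene of the 10-gene set and of 4 further lists (horizontal axis), with genes past the adjusted threshold in black, others in grey and list medians as red lines. The 10 granule genes lie between -0.27 and 0.08, while peptide cargo genes range from -2.03 for Tac2 to 1.23 for Nts.

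Summed marker levels of neurons in general, astrocytes, fibroblasts and microglia were higher in every KO library, and those of excitatory neurons, interneurons and endothelial cells and pericytes were lower. Called members are counted below, where 6.74% of all tested genes were called lower and 4.15% higher. Among genes that averaged 100 TPM or more, 10.2% were called lower. Summed levels of 10 general neuron markers were 8187 to 8278 TPM in WT and 8623 to 8747 TPM in KO, with 3 members higher and 1 lower. The 10 interneuron markers, of which Sst, Npy and Vip are also peptide cargo, summed to 1293 to 1336 TPM in WT and 956.3 to 1037 TPM in KO, with 8 lower and 1 higher. The 8 excitatory markers summed to 1416 to 1445 TPM in WT and 1026 to 1077 TPM in KO, with 5 lower. Astrocyte markers, 10 in all, summed to 4647 to 4815 TPM in WT and 5196 to 5386 TPM in KO, with 3 higher and 1 lower, and 8 fibroblast markers to 43.0 to 45.3 and 54.6 to 68.5 TPM, with 3 higher. The 9 oligodendrocyte-lineage markers overlapped, at 707.5 to 756.2 TPM in WT and 711.3 to 740.8 TPM in KO, with 2 lower, and 8 endothelial and pericyte markers summed to 18.4 to 19.7 and 16.7 to 17.8 TPM, with 1 lower. Microglia markers summed to 1.76 to 2.03 TPM in WT and 2.06 to 4.22 TPM in KO over 9 genes, none called, of which 8 had a mean below 0.5 TPM, among them Cx3cr1, Csf1r and P2ry12. The part of these shifts in the falls of Pcsk2, Pam and Chgb and in the values of Cpe was not tested.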

How the data were processed

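The authors deposited 1 table of TPM values, 1 column per library. Although its name says FPKM, every library adds up to 1000000. The build is mm10 and the tools are edgeR, featureCounts, Picard 1.127, TopHat, FastQC 0.11.2 and bcl2fastq 2.17, per the submitters' processing notes. The sources used here do not give their roles, the annotation, the strand setting or the scaling. TPM depends on a library-wide total, so a change in abundant genes shifts all others.

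Genes averaging 0.5 TPM or more were tested with limma 3.58.1 in R 4.3.3 on log2 of TPM plus 0.5, with a variance trend and no covariates. This scale understates changes of low genes. Folds and percentages of WT are ratios of group means. The analysis steps were also run on simulated data with known answers. That run served to check the steps and is not used as support for any call. Smallest whole-number counts that fit the steps of the values were recovered for all 19369 entries above 0 (100.0%, within 0.001 counts plus 2e-08 of the value). A factor common to all 6 libraries cannot be seen, so counts are lower bounds: Chga and Pcsk1 may have more. They served for depth and for 1 alternative chosen after seeing the data, limma voom.

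The genes and lists were chosen with earlier results of these data known. Named were all 10 genes, Kdm6b, Pcsk1n and, per list, the 4 called genes with the smallest p. Lists covered processing, granule trafficking, cargo, activity and 8 sets of cell type markers; 3 symbols were matched through RefSeq synonyms. Positions are from GENCODE M21 (GRCm38, as mm10). Alternatives varied pseudocount, filter, scaling, variance model, replicate block and libraries.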

Additional observations from a re-analysis of the deposited data

How the results depend on the processing

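The fall of Pcsk2 passed in all 17 alternatives, and those of Pam and Chgb kept their direction in all 17 and their call in 12 each. The count of the 10 genes called lower ranged from 1 to 4 when 1 library was left out and was 1 without the variance trend. The count called higher was 1 (Cpe) after median centring, with a robust variance trend, after rescaling without the 10 most abundant genes and with limma voom. Log2 fold changes near 0 reversed after median centring for Scg3 (0.0030), Scg5 (0.0091) and Pcsk1n (0.018), and for Pcsk1n with voom (0.0036). Leaving out 1 library gave ranges from -0.048 to 0.013 for Scg5, -0.094 to 0.080 for Vgf, -0.022 to 0.12 for Pcsk1 and -0.074 to 0.045 for Pcsk1n.

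Of the processing list, 2 were higher after median centring and 3 with voom, which also called 2 lower. Granule trafficking falls numbered 1 without a filter, 1 after median centring, 0 without the variance trend, 0 with the replicate block and 0 to 4 when 1 library was left out. Cargo rises numbered 4 with voom. Activity rises numbered 0 without the variance trend, 0 with the replicate block, 3 with voom and 0 to 1 when 1 library was left out, and activity falls 8 with voom and 3 to 8 when 1 library was left out. The cause was not tested. Among all genes, 38.1% of calls were higher in KO as deposited, 53.1% after median centring and 49.2% after quantile normalization, and the 1632 calls became 945 with the replicate block, 1064 without the variance trend, 2615 with voom and 892 to 1152 when 1 library was left out. Same-numbered libraries share only a number: their deviations correlated at 0.0077, -0.051 and 0.011, and with the block Pcsk2, Pam and Chgb kept their calls. Voom on counts with a length from the table was not run because the table gives none. Counts were fewest for Pcsk1 among the 10 genes, at least 309 per library.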

Other observations

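The 3 genes that fell had the most CG-rich promoters of the 8 with a RefSeq window, a feature looked at after the calls were known. The 250 bases before the start held 35 CG dinucleotides in Pcsk2, 28 in Pam and 26 in Chgb, against 17 in Scg3, 16 in Chga, 13 in Scg2, 8 in Pcsk1 and 5 in Scg5. Over all tested genes with a window, the median was 16 in the 710 called lower, 16 in the 458 called higher and 16 in the 9582 not called. These 3 medians are equal, and the order among the 8 genes was not tested. By GENCODE M21 the bases counted for Chgb lie wholly inside the gene. Pam had 2 windows, of which the first was counted. The calls of Pam and Chgb held in 12 of the 17 alternatives each.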
